A study of Bubalus bubalis with 6 samples.

Results

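MicroRNA genes were read in the sperm DNA of 6 buffalo (Bubalus bubalis) bulls on a microarray of CpG islands and promoters. The members are the non-control probes whose gene name on the array starts with MIR and a digit or with MIRLET: 230 probes under 101 names, of 19762 named probes under 7932 names and 177440 non-control probes in all. The groups were 3 subfertile bulls (numbers 1, 4 and 5) and 3 high-fertile bulls (numbers 2, 3 and 5), with 1 array per bull. DNA of both groups came from frozen semen, and the labels call the cells sperm. The labels state no breed, age, allele or treatment, and they do not say how fertility was scored. The sheared DNA was pulled down with an antibody against 5-methylcytosine, the methylated form of cytosine, and this immunoprecipitate (IP) carried Cy5. Input DNA of the same bull carried Cy3 on every array, so any bias of the dyes at a probe is common to both groups.

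A microRNA gene is transcribed as a long precursor that holds a hairpin. The nuclear Microprocessor (DROSHA with DGCR8) cuts the hairpin out, DICER1 trims it to a short duplex, and an Argonaute protein uses one strand to repress messenger RNAs that pair with its seed, the bases near its 5′ end. Many microRNA genes lie in introns of protein-coding genes or in clusters with a shared transcript, and several clusters are imprinted, so that their expression follows the methylation a chromosome received in the sperm or the egg. In mice, microRNAs of the mir-34 and mir-449 families act together in spermatogenesis. The array measured DNA near these genes, not the RNA made from them.

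The probes that carry the results below are shown first, 5′ to 3′ as deposited, in lower case with each CpG, the dinucleotide that carries methylation in mammals, in capitals. The files give no strand, and the genome build they refer to is not stated in the labels or headers. The MIRLET7C probe differed most between scan sessions, MIR92B and MIR758 were the names that passed the session test with a higher level in the later sessions, and MIR107 and MIR138-2 had the highest and lowest mean levels. The MIRLET7I and MIR429 probes hold their own family's seed, and MIR323 is the probe next to MIR758.
MIRLET7C, chr1:20137021-20137080: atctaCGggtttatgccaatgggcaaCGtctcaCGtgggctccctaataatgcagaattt
MIR92B, chr3:16810565-16810624: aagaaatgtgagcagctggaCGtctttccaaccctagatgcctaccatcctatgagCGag
MIR758, chr21:66004387-66004446: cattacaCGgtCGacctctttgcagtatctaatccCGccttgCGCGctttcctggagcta
MIR323, chr21:66004354-66004413: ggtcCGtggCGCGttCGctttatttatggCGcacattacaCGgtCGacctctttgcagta
MIR107, chr26:11664350-11664409: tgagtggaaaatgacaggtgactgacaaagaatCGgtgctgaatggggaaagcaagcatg
MIR138-2, chr18:24481960-24482019: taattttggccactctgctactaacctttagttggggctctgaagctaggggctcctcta
MIRLET7I, chr5:55133091-55133150: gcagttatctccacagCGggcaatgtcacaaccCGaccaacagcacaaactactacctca
MIR429, chr16:48593122-48593181: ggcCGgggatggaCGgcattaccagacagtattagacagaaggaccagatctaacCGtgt
The let-7 seed GAGGTAG, searched on both strands, was held by 2 of the 230 microRNA probes (0.87%), 1 of MIRLET7I and 1 of MIRLET7G, against 0.594% of all 177440 probes. The MIRLET7C probe did not hold it, so these letters are not in its window. The seed AATACTG that mir-429 shares with part of the mir-200 family was held by 5 of 230 (2.17%), against 0.61% of all probes. Of these 5 probes, 2 were overlapping MIR429 probes, and the others carried the names MIR759, MIR29B-1 and MIR16A. A level below is that of the DNA under a name's probes, which may lie beside the hairpin.

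The measure was log2(IP/input), with the median of all non-control probes of an array set to 0, so a value of 1 is a doubled IP signal relative to input against that array's middle probe. A probe was tested where the scanner software called its input signal well above background for all 6 bulls and marked neither channel as non-uniform. This left 81 of 230 microRNA probes (35.2%, against 38.7% of named probes) and 41 of 101 microRNA names (40.6%, against 54% of all names), on 15 chromosomes. Of the 41 names, 26 rested on 1 tested probe, 7 on 2 and 8 on 3 or more. The tested microRNA probes held a median of 2 CpGs in 60 bases, as did the 7563 other named probes tested. No CpG lay in 17 of the 81 (20.99%), against 12.8% of the other named probes.

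The file headers date the scans to a first session, which held subfertile bull 4 and high-fertile bulls 2 and 3, and to later sessions, which held subfertile bulls 1 and 5 and high-fertile bull 5. Over the 41 names, Pearson's r between bulls of the same session was 0.38 to 0.87 and between bulls of different sessions -0.29 to 0.17, as a description of names measured on shared arrays. Slide did not follow session exactly, since subfertile bull 1 shared a slide with the 3 first-session bulls, and its header alone names the CGH extraction protocol. The IP channel was well above background at 81, 59 and 78 of the 81 tested probes in subfertile bulls 1, 4 and 5, against 50, 73 and 75 in high-fertile bulls 2, 3 and 5. Genes with a maternal imprint, unmethylated in sperm, had a median level of -0.11 over 4 tested names, and genes with a paternal imprint, methylated in sperm, -0.02 over 4. The levels of both lists overlapped, -0.74 to 0.28 for the maternal and -0.15 to 0.08 for the paternal list, so on this scale these lists did not separate. Of the leukocyte and epithelial genes, 2 of 3 and 4 of 6 were tested and none passed the test between groups. Since the DNA of each semen sample was pooled over its cells, methylation per cell and the mix of cells cannot be told apart.

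MicroRNA names spread over both sides of the array median. The highest mean over the 6 bulls was that of MIR107, whose product shares its seed with mir-103, at 0.94 ± 0.50 (SD, n = 6). Its values were 0.47, 1.27 and 1.05 in subfertile bulls 1, 4 and 5, against 0.61, 1.72 and 0.52 in high-fertile bulls 2, 3 and 5. MIR107 lay above 0 in every bull, with the groups overlapping. MIRLET7C followed at 0.73 ± 1.92, MIR202, known from the gonads of vertebrates, at 0.57 ± 0.40, MIR92B at 0.50 ± 0.55 and MIR429, a microRNA of epithelial cells, at 0.43 ± 0.52. These neighbours in the order do not differ beyond their spread over bulls. MIR202 too was above 0 in all 6 bulls, at 0.99, 0.14 and 0.83 in subfertile bulls 1, 4 and 5, against 0.08, 0.48 and 0.91 in high-fertile bulls 2, 3 and 5. MIR107 and MIR202 each rest on 1 probe. For both, IP was well above background in all subfertile but only 2 of 3 high-fertile bulls, so not every value is resolved.

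At the low end stood MIR138-2 with -0.83 ± 0.42, MIR17 with -0.79 ± 0.54, MIR193B with -0.74 ± 0.46, MIR2416 with -0.71 ± 0.29 and MIR760 with -0.66 ± 0.44 (SD, n = 6 each). MIR17 belongs to the mir-17-92 cluster, a driver of cell proliferation, and the MIR2416 probe overlaps a probe named for MACF1, a cytoskeletal linker. MIR138-2 had -0.60, -0.74 and -0.87 in subfertile bulls 1, 4 and 5, against -0.32, -0.83 and -1.58 in high-fertile bulls 2, 3 and 5. Its lowest and its highest value came from high-fertile bulls, and the subfertile bulls lay between them. The SDs of these 5 names exceed the gaps between their means. IP was well above background on every array for MIR138-2 and MIR193B. It was so on 1 of 3 first-session arrays for MIR2416 and on 2 of 3 for MIR17 and MIR760, so their values are not all resolved.

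As a set, the 41 microRNA names stood near all 4286 tested names. Their median per bull was -0.04, -0.14 and -0.11 in subfertile bulls 1, 4 and 5, against 0.08, -0.08 and -0.10 in high-fertile bulls 2, 3 and 5. The median of all names was -0.14, -0.10 and -0.24 in the same subfertile bulls, against -0.26, -0.06 and -0.19 in the high-fertile bulls. The microRNA median was above that of all names in 4 of 6 bulls, by 0.10 ± 0.13 on average (SD, n = 6). Without the filter it was above in 6 of 6 bulls, by 0.09 ± 0.09, though by only 0.0020 in high-fertile bull 5. Over microRNA probes, set against other named probes of the same CpG number, it was also above in 6 of 6, by 0.09 ± 0.11. That gap was near 0 in subfertile bull 4 (0.0012) and high-fertile bull 3 (0.0019). With normexp background correction in place of the processed signals the microRNA median was above in 4 of 6, by 0.01 ± 0.07.

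**Figure D1:**
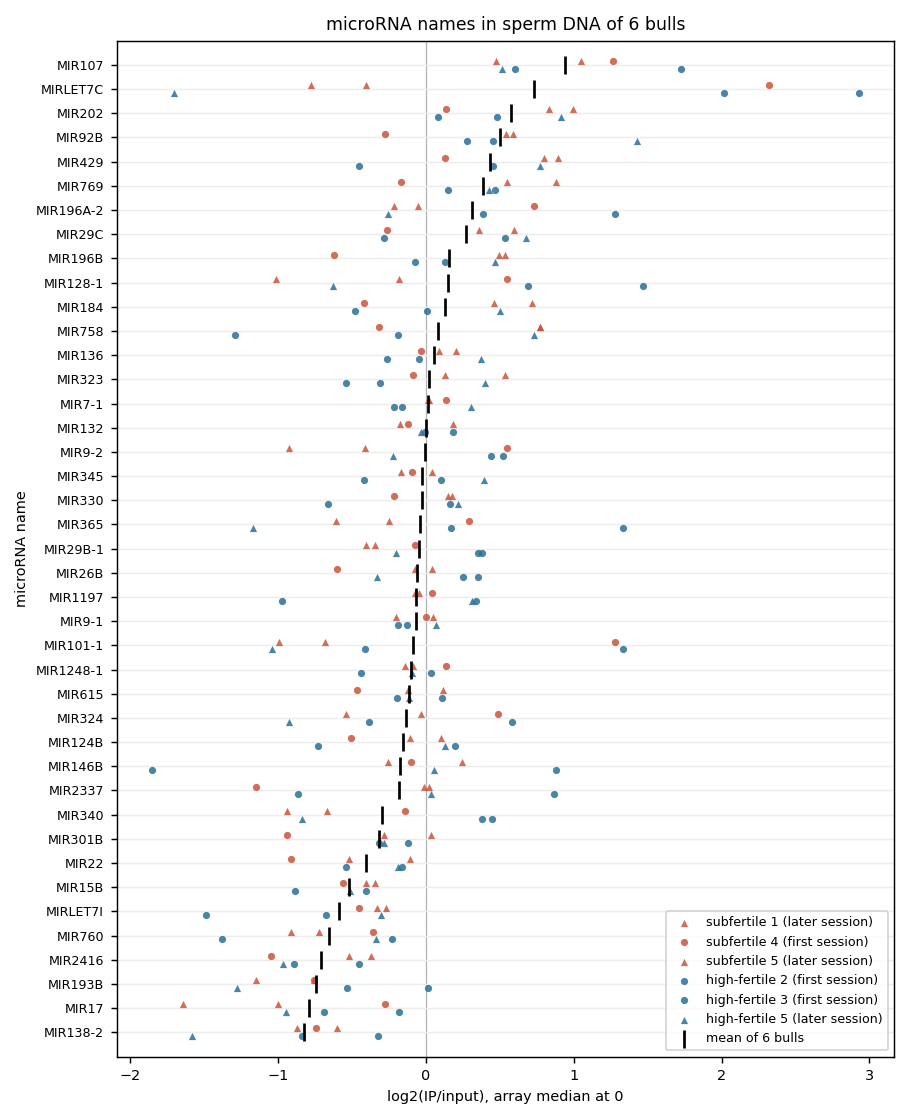
Log2(IP/input) of the 41 tested microRNA names (rows, ordered by mean) in each bull: red points are the 3 subfertile and blue points the 3 high-fertile bulls, circles the first and triangles the later scan sessions, and black bars the mean of 6 bulls. MIR107 (mean 0.94) lies at the top and MIR138-2 (mean -0.83) at the bottom, and for MIRLET7C the circles lie at 2.02 to 2.93 and the triangles at -1.70 to -0.41.

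The question of the study was whether sperm DNA methylation differs with fertility. For the microRNA names no difference between subfertile and high-fertile bulls passed the test. With limma's moderated test and Benjamini-Hochberg adjustment over 4286 names, 0 of 41 microRNA names and 0% of all names had an adjusted p under 0.05 (smallest adjusted p 0.999886). At an unadjusted p under 0.05 there were 0 of 41, against 0.793% of all names (34 of 4286). The groups did not overlap for 0 of 41, against 3.87% of all names. Differences, subfertile minus high-fertile on the log2 scale, went from -0.73 for MIR128-1 to 0.66 for MIR758. They were above 0 for 18 names and below 0 for 23, and 52.2% of all names were above 0. The median was -0.04 over microRNA names and 0.02 over all names.

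Probes taken singly gave the same counts of 0. None of 81 microRNA probes and 0% of all 110686 tested probes passed the adjusted test, and none of the 81 had an unadjusted p under 0.05, against 1.84% of all probes. The groups did not overlap at 1 of 81 probes (1.23%), against 5.78% of all probes. It was a MIR136 probe, where subfertile bulls 1, 4 and 5 had -0.23, -0.41 and -0.60 and high-fertile bulls 2, 3 and 5 had 0.00, -0.06 and -0.17. The next MIR136 probes on both sides overlapped between groups. The MIR136 probe that did not overlap starts 1.18 kb from the first MIR136 probe. An RTL1-named probe at 1.173 kb did not overlap either, with the subfertile bulls lower. The unnamed probe between them, at 1.175 kb, overlapped.

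The precision was limited by the number of arrays. The median standard error of a microRNA difference was 0.38 on the log2 scale, and the 95% interval lay within 1 log2 unit of 0 for 17 of 41 names. With scan session as a block the median error was 0.30 and 28 of 41 intervals lay within that range. A p above the threshold does not show that the groups were alike at the other names.

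**Figure D2:**
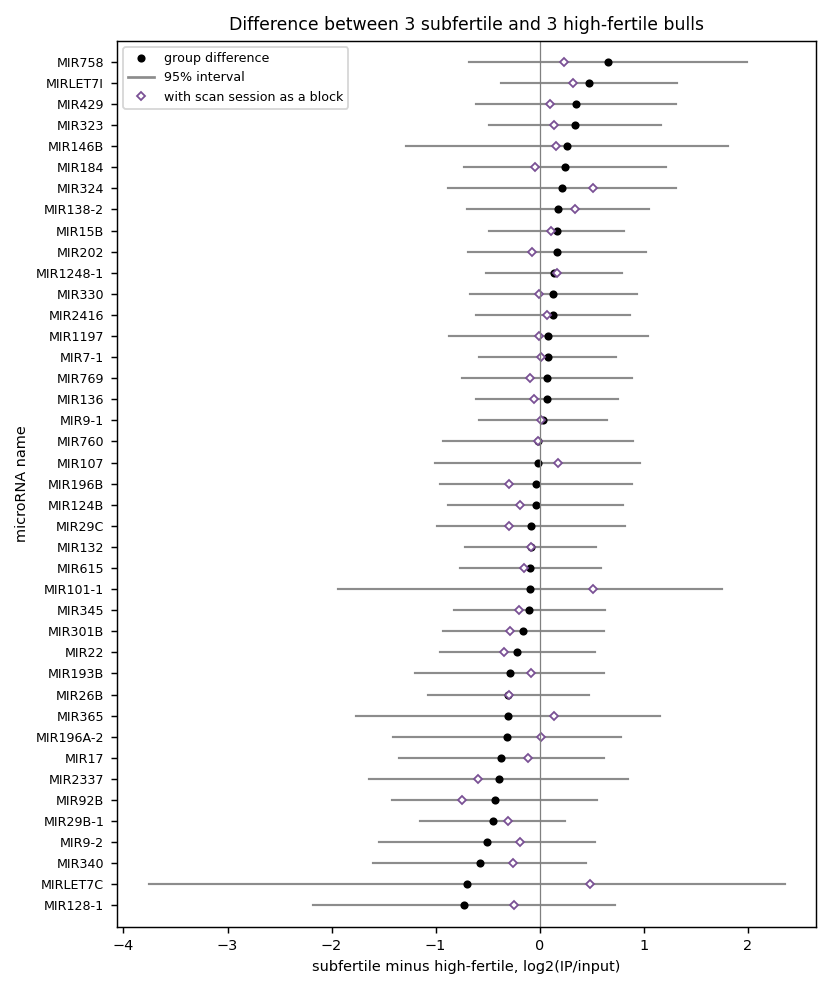
Difference between subfertile and high-fertile bulls in log2(IP/input) for each of the 41 tested microRNA names (rows), with black points for the difference, grey lines for its 95% interval (n = 3 against 3) and open diamonds for the difference with scan session as a block. Every interval includes 0, from MIR128-1 at -0.73 to MIR758 at 0.66, and that of MIRLET7C is the widest, -3.76 to 2.35.

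The 5 names with the smallest unadjusted p were MIR29B-1, MIR340, MIRLET7I, MIR128-1 and MIR758, and none passed. MIR29B-1 belongs to the mir-29 family, which in human cells targets the DNA methyltransferases DNMT3A and DNMT3B. It had -0.40, -0.08 and -0.34 in subfertile bulls 1, 4 and 5, against 0.36, 0.38 and -0.20 in high-fertile bulls 2, 3 and 5. High-fertile bull 5 lay among the subfertile bulls, and all 3 later-session bulls lay below all 3 first-session bulls. The difference was -0.45 ± 0.30 (SE, unadjusted p = 0.168 by limma) and became -0.31 with session as a block. IP at its 1 tested probe was well above background on 1 of 3 first-session arrays, so the order of the bulls and the size are not resolved. The other mir-29 name tested, MIR29C, differed by -0.08, with IP well above background on 0 of 3 first-session arrays. MIR29E was not tested.

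MIR128-1, a microRNA of neurons, had the lowest difference. Its values were -0.18, 0.55 and -1.02 in subfertile bulls 1, 4 and 5, against 0.69, 1.47 and -0.63 in high-fertile bulls 2, 3 and 5. The 3 positive values were those of the first session in both groups, and the difference of -0.73 ± 0.62 (SE) became -0.25 with session as a block. MIR340 had -0.67, -0.14 and -0.94 in the subfertile bulls 1, 4 and 5, against 0.45, 0.38 and -0.84 in high-fertile bulls 2, 3 and 5. Here too the later-session bulls were the lowest of each group. The difference of -0.58 ± 0.43 became -0.26 with the block. IP at the 1 MIR340 probe was well above background in 2 of 3 subfertile and 1 of 3 high-fertile bulls. By session it was so on 1 of 3 later arrays. At the tested MIR128-1 probe it was so in all subfertile and 2 of 3 high-fertile bulls. The values of both names are therefore not all resolved.

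MIRLET7I was the name with the second-highest difference. Its mean was -0.35 ± 0.09 in subfertile and -0.82 ± 0.60 in high-fertile bulls (SD, n = 3 each), a difference of 0.47 ± 0.36 (SE) and 0.32 with session as a block. The low high-fertile mean rested on bull 2, at -1.48, and without that bull the difference was 0.14. MIR92B was the single microRNA name with an unadjusted p under 0.05 once session was a block, against 2.66% of all names. It had 0.59, -0.27 and 0.55 in subfertile bulls 1, 4 and 5, against 0.28, 0.45 and 1.43 in high-fertile bulls 2, 3 and 5. Within each session every subfertile bull lay below every high-fertile bull, by a mean of 0.64 in the first and 0.86 in the later sessions. In each session a lone bull stood for 1 of the groups. The share of all names with such an order was not counted, so the order is a description only. IP at the 1 MIR92B probe was not well above background in subfertile bull 4, the lone subfertile bull of the first session. The sizes of the first-session gap and of the blocked difference are therefore not resolved. The blocked difference was -0.75 (unadjusted p = 0.0125, smallest adjusted p over the microRNA names 0.999423 by limma), against -0.43 without the block.

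Within the sessions the directions often disagreed. The difference had the same sign in the first and in the later sessions for 13 of 41 names (31.7%), against 47.9% of all names. It was below 0 in both for 6 names and above 0 in both for 7. In the first session alone, with subfertile bull 4 against high-fertile bulls 2 and 3, 0 of 41 names and 0% of all names passed the adjusted test. In the later sessions alone, with subfertile bulls 1 and 5 against high-fertile bull 5, 1 of 41 passed (2.44%), against 2.22% of all names. A lone bull stands for a group in each of these fits, and its spread is assumed to be that of the other bulls. The name was MIRLET7C, with a difference of 1.11 (adjusted p = 0.0468 by limma), against -0.15 in the first session. It rests on 1 probe whose IP was not well above background in high-fertile bull 5, the lone bull of its group, so the size of this difference is not resolved. The test of the difference between sessions itself, the interaction of group and session, passed for none of 41 (0% of all names, smallest adjusted p 0.875). At an unadjusted p under 0.05 it held 1 of 41, MIR26B, whose difference was -0.90 in the first and 0.31 in the later sessions, against 4.18% of all names.

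The 8 names with 3 or more tested probes did not pass the test between groups either. MIR132, which neurons induce through CREB, was measured by 10 probes, the most of any microRNA name tested. Its mean was -0.04 ± 0.19 in subfertile and 0.05 ± 0.12 in high-fertile bulls (SD, n = 3 each), a difference of -0.09 ± 0.27 (SE). Its single probes differed by -0.39 to 0.23, with 4 of 10 above 0. MIR136, with 9 probes, differed by 0.07 ± 0.29. MIR15B, a brake on the cell cycle, lay below 0 in all 6 bulls, with -0.44 ± 0.11 in subfertile and -0.60 ± 0.25 in high-fertile bulls, and differed by 0.16 ± 0.28.

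The remaining names with 3 or more probes lay in or near genes the array also names. MIR1248-1, 576 bases from a probe of its host EIF4A2, a translation initiation factor, differed by 0.14 ± 0.28 (SE). MIR615, which lies 351 bases from a probe of HOXC5, differed by -0.09 ± 0.29, and MIR196B, whose probes overlap those of HOXA9, by -0.04 ± 0.39. Both HOX genes are patterning factors, and the HOX clusters carry these microRNAs in mammals generally. MIR124B, of a family specific to neurons, differed by -0.04 ± 0.36 and MIR429 by 0.35 ± 0.41. For MIR429 the 3 probes all had differences above 0, 0.14 to 0.46, but 2 of the 3 overlap. With session as a block the MIR429 difference was 0.10. IP at its probes was well above background at 5 of 9 first-session readings (3 probes on 3 arrays), so the size is not resolved. Its values were 0.90, 0.13 and 0.80 in subfertile bulls 1, 4 and 5, against 0.46, -0.45 and 0.77 in high-fertile bulls 2, 3 and 5, so the groups overlapped and the first-session bulls were the lowest.

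By family, few members could be tested, and no family had a member past the threshold between groups (0 of 41, with 0% of all names). Of the let-7 family, whose members promote differentiation, 2 of 3 names were tested, 1 above and 1 below 0. Of the mir-17-92 family 2 of 3 were tested, MIR17 at -0.37 and MIR92B at -0.43. Of the neural microRNAs 4 of 10 were tested, MIR128-1 and MIR9-2 (-0.51) with MIR124B below 0 and MIR9-1 (0.03) above. Their median was -0.27, against 0.02 over all names, and with session as a block -0.19, against 0.03. MIR9-2 was at -0.19 with the block, and its IP was well above background on 1 of 3 first-session arrays. Both MIR128-1 and MIR9-2 passed the session test given below. The HOX microRNAs MIR196A-2 (-0.32) and MIR196B were both below 0, and MIR146B, a microRNA that NF-kB induces in blood and immune cells, was at 0.26. Of the families without a tested name, mir-34 and mir-449 of the male germ line had 1 name each on the array, MIR34B and MIR449B, the muscle microRNAs had 3 (MIR1-2, MIR133A-2 and MIR133B) and MIR182 and the MEST intron's MIR335 were alone. The array held no name of the mir-143 and mir-145 pair, of mir-122 of the liver, or on chromosome X.

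Read by position, microRNA names at most 50 kb apart made 10 clusters, of which 4 had 2 or more tested names. The 4 differences, as means over tested probes and given as a description, were 0.36, -0.11, -0.30 and -0.13. The first is a group of 8 names on chromosome 21 (65996257 to 66041551) that in mammals belongs to the imprinted DLK1-DIO3 region. Its 4 tested probes, of MIR1197, MIR323 and MIR758, averaged 0.45, -0.11 and 0.24 in subfertile bulls 1, 4 and 5, against -0.12, -0.84 and 0.46 in high-fertile bulls 2, 3 and 5. High-fertile bull 5 lay among the subfertile bulls. The mean of the later sessions was 0.38, against -0.35 in the first.

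The other clusters showed no separation either. MIR132 with MIR2337 on chromosome 19 averaged 0.17, -0.22 and -0.16 in subfertile bulls 1, 4 and 5, against 0.24, -0.08 and -0.03 in high-fertile bulls 2, 3 and 5. MIR193B with MIR365 on chromosome 25, a pair known to share a transcript in human and mouse, averaged -0.68, -0.23 and -0.70 in the subfertile bulls 1, 4 and 5, against -0.18, 0.68 and -1.22 in high-fertile bulls 2, 3 and 5. The high-fertile bulls held both its highest and its lowest value. IP at the MIR365 probe was well above background in 1 of 3 high-fertile bulls, so the high-fertile values are not all resolved. MIR615 with MIR196A-2 of the HOXC cluster on chromosome 5 averaged 0.08, -0.23 and -0.14 in subfertile bulls 1, 4 and 5, against -0.08, 0.34 and -0.14 in high-fertile bulls 2, 3 and 5.

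The imprinted region was the densest stretch of microRNA names. MIR136 (65867009 to 65869658), which lies antisense in RTL1 in mammals and overlaps RTL1-named probes here, starts the stretch, and MIR379 lies 126.6 kb from its last probe. MIR758 had 0.77, -0.32 and 0.77 in subfertile bulls 1, 4 and 5, against -0.19, -1.29 and 0.73 in high-fertile bulls 2, 3 and 5. MIR323, whose probe overlaps that of MIR758, had 0.53, -0.09 and 0.13 in the subfertile bulls 1, 4 and 5, against -0.31, -0.54 and 0.40 in high-fertile bulls 2, 3 and 5. For both names all 3 later-session bulls lay above all 3 first-session bulls, while the fertility groups overlapped. The 3 tested names of the imprinted list, MIR136, MIR323 and MIR758, had group differences of 0.07, 0.34 and 0.66. With session as a block these were -0.05, 0.13 and 0.23. MIR1197, which lies between them but is not on that list, differed by 0.08 and with the block by -0.0058, and its sessions overlapped.

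Most unnamed probes of the same stretch were also higher in the later sessions. Between the first MIR136 probe and MIR412, 103 probes were tested. The later-session mean was above the first-session mean at 11 of 13 microRNA probes, at 70 of 80 unnamed probes and at 6 of 10 RTL1-named probes. Many of these 60-base probes start a few bases apart and overlap, so they are not separate readings. The same share over all tested probes was not counted. Elsewhere, other named probes with 3 or more CpGs also averaged higher in the later sessions, -0.08 against -0.36 in the first. Averages in the later sessions were 0.27 for microRNA probes, 0.23 for unnamed probes and 0.13 for RTL1 probes, against -0.19, -0.19 and 0.09 in the first session. The later-minus-first difference of means was 1.36 at MIR758 and 0.67 at MIR323, against 0.83 over the 17 unnamed probes within 500 bases of them. The value at MIR758 is set against first-session IP that was not well above background on any of the 3 arrays.

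**Figure D3:**
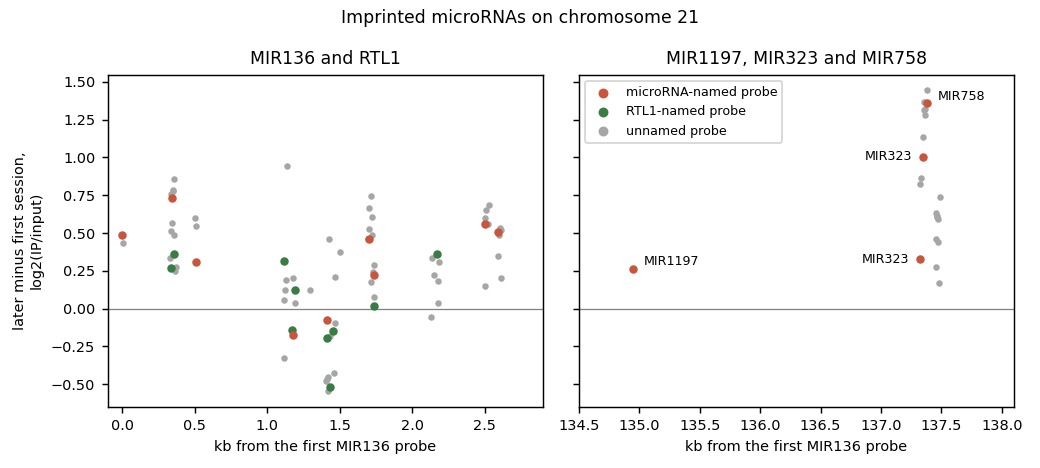
Later minus first scan session in mean log2(IP/input) (vertical axis) for 97 of the 103 tested probes of the imprinted stretch on chromosome 21, by distance in kb from the first MIR136 probe (horizontal axis); the 6 other probes, all unnamed, lie outside both panels. Red points are microRNA-named, green RTL1-named and grey unnamed probes, and most lie above 0 (11 of 13, 6 of 10 and 70 of 80 over the whole stretch). Many of the probes overlap one another.

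More microRNA names differed between scan sessions than between fertility groups. With fertility group in the model, 7 of 41 names differed between the later and the first sessions at an adjusted p under 0.05 (limma, Benjamini-Hochberg over 4286 names), 17.1%, against 20.1% of all names. The sessions did not overlap for 18 of 41 names (43.9%), 9 higher and 9 lower in the later sessions, against 48.6% of all names. The microRNA share was near that of the array as a whole. The session differences are relative to the array median: centred on the tested probes alone, the median later-minus-first difference was -0.05 over microRNA names and -0.23 over all names, against 0.19 and 0.01 with the array median.

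MIRLET7C had the widest gap. It had -0.41, 2.32 and -0.78 in subfertile bulls 1, 4 and 5, against 2.02, 2.93 and -1.70 in high-fertile bulls 2, 3 and 5. The 3 first-session bulls lay above 2 in both groups and the 3 later-session bulls below 0, a later-minus-first difference of -3.54 ± 0.40 (SE, adjusted p = 0.00989 by limma). The name rests on 1 probe with 3 CpGs, its IP was above background on all arrays but that of high-fertile bull 5, and no tested unnamed probe lies within 500 bases of it. MIR101-1, which in human cells targets the histone methyltransferase EZH2, differed later minus first by -1.81 ± 0.48 (adjusted p = 0.0419), MIR128-1 by -1.43 ± 0.36 (adjusted p = 0.0355), MIR340 by -0.96 ± 0.25 (adjusted p = 0.041) and the neural MIR9-2 by -0.96 ± 0.27 (adjusted p = 0.0473). All 5 names were lower in the later sessions and have 0 to 3 CpGs in the probe. IP at MIR340 was well above background on 1 of 3 later and 2 of 3 first-session arrays. The counts were 1 of 3 first-session arrays at MIR9-2, 2 of 3 at MIR128-1, and 2 of 3 later arrays at MIR101-1. The sizes of these differences are therefore not resolved.

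MIR758 and MIR92B were the names past the threshold with a higher level in the later sessions. MIR758 differed by 1.28 ± 0.34 (SE, adjusted p = 0.0424 by limma). Its IP was not well above background on any first-session array, so the difference of 1.28 takes values there that the array did not resolve. For the IP channel alone, not divided by input, the signal was at least 3.66-fold higher in the later sessions, as means of log2 values normalized between channels and arrays, with each dim array set to the lowest signal well above background. This bound is of another quantity than IP/input and rests on that normalization, with no dye swap to check it. MIR92B differed by 0.95 ± 0.22 (adjusted p = 0.0306), with IP not well above background in subfertile bull 4 of the first session. Centred on tested probes neither passed, with adjusted p of 0.0737 for MIR758 and 0.0506 for MIR92B, and 9 of 41 names then passed, all lower in the later sessions, against 24.4% of all names. Among the names higher in the later sessions, next in order of p came MIR184, at 0.87 ± 0.26 (adjusted p = 0.0542), and MIR196B, at 0.79 ± 0.26 (adjusted p = 0.071), neither past the threshold.

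**Figure D4:**
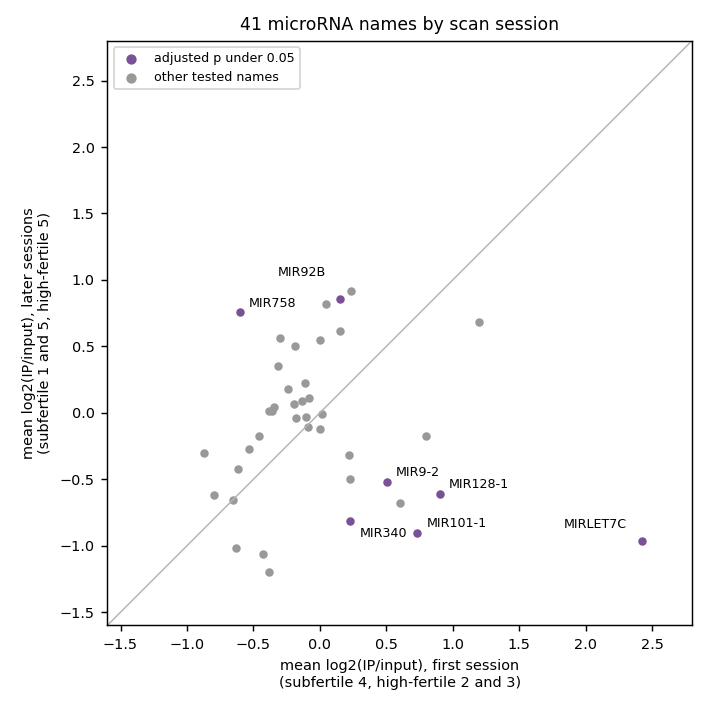
Mean log2(IP/input) of the 41 tested microRNA names in the later scan sessions (vertical axis, 3 bulls) and in the first session (horizontal axis, 3 bulls), with the diagonal where both are equal. The 7 purple, named points had an adjusted p under 0.05 for the session: 5 lie below the diagonal, farthest MIRLET7C at -0.96 later against 2.42 first, and MIR758 and MIR92B lie above it.

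Unnamed tested probes lay within 500 bases of 22 names, and some names had values near theirs while others had not. The later-minus-first difference of means was 0.78 for MIR429, against 0.93 for its 6 such neighbours. For MIR184, a microRNA of the eye lens and cornea, it was 0.86, against 0.96 for 5 neighbours, and for MIR202 it was 0.68, against 0.63 for 3. MIR7-1 had 0.19, against 1.08 for 2 neighbours, MIR196B 0.69, against 0.29 for 44, and MIR9-1 0.07, against 0.56 for 7. MIR15B had 0.20, against -0.02 for 45 neighbours, and MIR132 had -0.03, against 0.11 for 99.

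The CpG content of a probe went with its level in a way that differed by session. Among microRNA probes with no CpG the median was -0.06, 0.07 and 0.02 in subfertile bulls 1, 4 and 5, against 0.17, 0.38 and 0.06 in high-fertile bulls 2, 3 and 5. Among those with 3 or more CpGs it was -0.03, -0.37 and -0.04 in the subfertile bulls 1, 4 and 5, against -0.19, -0.30 and 0.05 in high-fertile bulls 2, 3 and 5. In the 3 first-session bulls CpG-rich microRNA probes were therefore lower than CpG-free ones, and in the later sessions the 2 classes averaged -0.01 and 0.01. Other named probes had a wider swing: probes with no CpG averaged -0.44 in the later sessions, against 0.28 in the first, and those with 3 or more -0.08, against -0.36. The part of this pattern in the session differences of single names was not tested.

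**Figure D5:**
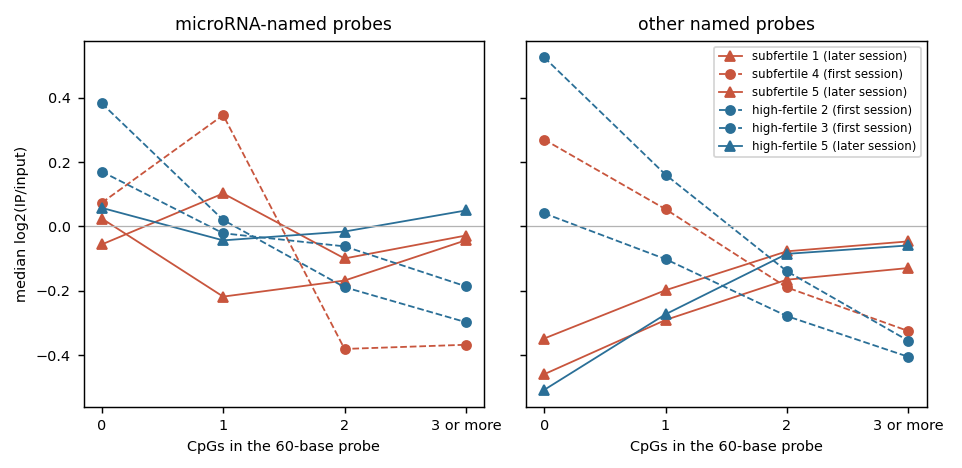
Median log2(IP/input) by number of CpGs in the 60-base probe for microRNA-named probes (left, 17, 12, 20 and 32 probes) and other named probes (right), with 1 line per bull, red for subfertile and blue for high-fertile, solid with triangles for later and dashed with circles for first-session arrays. In both panels every dashed line ends lower at 3 or more CpGs than it starts at 0, and in the right panel the solid lines rise.

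The 60 names without a tested probe had 97 probes, and 37 of the names had 1 probe. Input was above background on none of the 6 arrays at 29 of these probes. Read without the filter, no microRNA name of 101 passed the adjusted test between groups (0% of 7932 names). The groups did not overlap for 5 of 101 (4.95%), against 4.55% of all names, all with the subfertile bulls lower: MIR124A-2, MIR181A-2, MIR186, MIR708 and MIR759. All 5 have 0 or 1 CpG per probe and an input too dim for the filter, so no fold is given for them. Without the filter the median difference was -0.29 over microRNA names and -0.25 over all names. Between sessions 35 of 101 unfiltered names passed (34.7%, 33 lower and 2 higher in the later sessions), against 35.2% of all names.

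No gene that makes or uses microRNAs passed the test between groups. Of 22 such genes on the array 13 were tested, and 0 of 13 passed (0% of all names), with 7 above and 6 below 0 and a median of 0.07. PAN2, a deadenylase that shortens the tails of repressed messenger RNAs, differed most, by -1.15 ± 0.71 (SE). It had -0.95, -0.31 and -0.99 in subfertile bulls 1, 4 and 5, against -0.25, 2.12 and -0.68 in high-fertile bulls 2, 3 and 5, so its mean rested on high-fertile bull 3. The exonucleases XRN1 and XRN2 differed by 0.45 ± 0.31 and -1.01 ± 0.84. DGCR8, the RNA-binding partner of DROSHA, was measured by 14 probes and differed by 0.32 ± 0.30. The Argonaute genes EIF2C1 and EIF2C2 (AGO1 and AGO2) differed by -0.10 and 0.07.

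Between scan sessions 2 of the 13 passed, against 20.1% of all names. CNOT1, the scaffold of the CCR4-NOT deadenylase that silenced messenger RNAs recruit, had 0.08, 2.32 and -0.01 in subfertile bulls 1, 4 and 5, against 1.58, 2.08 and -0.48 in high-fertile bulls 2, 3 and 5. It was lower in the later sessions, with a later-minus-first difference of -2.30 (adjusted p = 0.00989 by limma), and so was XRN2, at -1.94 (adjusted p = 0.0424). As with MIRLET7C, the first-session bulls of both fertility groups were the high ones.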

How the data were processed

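Each array's deposited file lists linear spot intensities from Agilent Feature Extraction, version 10.7.3.1 per the file headers, with a deposited log10 ratio of red (IP) over green (input). The deposited series table holds log2 ratios of the same spots: it matched the scanner ratio within 0.001 at 177439 probes on every array, with column medians of -0.04 to 0, and was used as an alternative. Gene names were in the 3 first-session files and were carried to the other 3 by probe. The genome build and annotation of the array are not given in the sources used here.

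Log2(IP/input) of the processed signals was centred on each array's median, without loess or quantile steps. Differences were tested with limma 3.58.1 in R 4.3.3 over all names (mean of tested probes, at least 1) and over all tested probes, 2-sided. The fits were tested on simulated data. Loess, normexp (offset 50), other filters, centrings, blocks and leaving out bulls were tried. Named are names past the threshold in any fit, with groups that do not overlap, the 5 highest and lowest, names with 3 or more probes, clusters, and up to 4 biogenesis genes, 3 names per family and 4 per session direction by p. The names, families and lists were chosen with earlier results of these data known. Each array is 1 bull, so p-values cover the spread between these 6 bulls.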

Additional observations from a re-analysis of the deposited data

How the results depend on the processing

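No paired analysis was possible because the subfertile and high-fertile labels share only 1 replicate number (5), which pairs no 2 animals. Between the groups, no microRNA name, probe, family member or biogenesis gene passed the adjusted test under any alternative run (other filters, background corrections, centrings, loess, blocks, sessions, the deposited table, leaving out each bull), except in the later sessions alone, where 1 name, MIRLET7C, passed, which also makes 1 in the families. Between sessions 35 names of 101 passed without the filter, against 7 of 41 with it. MIR758 (1.04) and MIR92B (0.71) fell short when centred on tested probes, and MIR92B (0.70) also with session as the sole term. With clusters joined within 10 kb the median difference over the 3 clusters with a tested name was 0.078, against -0.12 over the 6 such clusters within 50 kb. The median difference over microRNA names was -0.29 without the filter, 0.073 with normexp and -0.14 in the first session alone, and -0.034 to 0.039 when leaving out a bull.

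Single differences turned round under some alternatives, among them those of MIR128-1 (-0.73), MIRLET7C (-0.70) and MIR340 (-0.58). None was past the threshold but that of MIRLET7C in the later sessions alone, and the cause was not tested. In the later sessions alone the difference was 0.037 for MIR340, 0.028 for MIR128-1, -0.017 for MIR1248-1, 0.038 for MIR132, 0.11 for MIR615, -0.23 for MIR136, 0.048 for MIR196B, 1.11 for MIRLET7C and -0.070 for MIR323. With normexp it was 0.14 for MIR132, 0.017 for MIR615, 0.10 for MIR124B and 0.29 for MIR196B. Without the filter it was -0.17 for MIR15B and -0.047 for MIR1248-1. With session as a block it was -0.051 for MIR136 and 0.48 for MIRLET7C. Without the filter and with session as a block, an alternative chosen after seeing the data, it was -0.049 for MIR429, -0.044 for MIR15B, -0.038 for MIR136 and 0.48 for MIRLET7C. MIR136 was also at -0.0070 centred on tested probes and -0.036 with loess. By the median over probes MIR132 was at 0.015 and MIR196B at 0.065. Leaving out a bull gave -0.0065 to 0.61 for MIR429, -0.23 to 0.064 for MIR615, -0.077 to 0.24 for MIR136, -0.34 to 0.13 for MIR124B, -0.24 to 0.34 for MIR196B and -2.09 to 0.22 for MIRLET7C. With 3 bulls a group and the session cutting across both groups, dim IP limits what the names of low signal can show. At the tested microRNA probes IP was dimmest in first-session bulls: it was well above background at 50 of 81 in high-fertile bull 2 and 59 in subfertile bull 4. High-fertile bull 3 of that session had 73, near the 75 of high-fertile bull 5 in the later sessions. For some names, such as MIR340 and MIRLET7C, IP was also dim in the later sessions.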
